A study of Mus musculus with 15 samples.

Results

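Gene expression in the abdominal segment of the mouse aorta was compared between a high-phosphate diet and standard chow. The comparison rests on the 8 arrays whose titles name the abdominal aorta, 4 from mice on the high-phosphate diet and 4 from mice on chow, out of 15 arrays in the series. The other 7 arrays hold the thoracic segment, 3 on high phosphate and 4 on chow, and serve here only for comparison. The mice, DBA/2NCrl throughout, were 8 weeks old at the start. The high-phosphate diet (HPD) contained 20.2 g of phosphorus per kg and the standard chow diet (SCD) 7.0 g per kg, and both were fed for 5 days. The labels call the arrays of a group biological replicates. They do not give the sex of the mice or say whether arrays hold RNA of single or pooled mice, or whether the 2 segments share mice. Each gene is represented by 1 probe set, the brightest of those that name only that gene, which gave 22180 genes. Values are deposited log2 intensities, so a difference of 1 is a doubling, and changes are high phosphate minus chow with the standard error from limma. A gene was called when its p, adjusted by the Benjamini-Hochberg method over all genes, was under 0.05. Precision is limited by how few arrays there are.

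The wall of the aorta consists of contractile smooth muscle between elastic sheets, lined by endothelium and wrapped in an adventitia of fibroblasts, collagen, nerves and immune cells. Outside lies perivascular fat, which in rodents resembles brown fat around the thoracic aorta and is more mixed around the abdominal one. Dietary phosphate is sensed through hormones such as fibroblast growth factor 23 and parathyroid hormone, and a long excess of phosphate can drive arterial smooth muscle towards a bone-like state with mineral deposits.

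The arrays carried the smooth muscle RNA their label implies, together with RNA of neighbouring tissues. Myh11, the smooth muscle myosin heavy chain, and Tagln, a calponin-like actin-binding protein, both picked after their values were seen, lay between 10.35 and 11.13 and between 9.02 and 9.79 on the 8 arrays. The mean of 26 smooth muscle contractile genes was 8.04, 7.97, 8.57 and 8.11 on high-phosphate arrays 1 to 4 and 8.62, 8.48, 8.46 and 8.14 on chow arrays 1 to 4. High-phosphate array 3 was the highest of its group and chow array 4 the lowest of its own. Pearson's r over all 41345 probe sets was 0.974 to 0.989 between arrays of 1 diet and 0.961 to 0.983 between arrays of different diets.

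Single arrays held lymphoid and liver RNA. Averaged over 14 genes of T and NK cells, the level was 8.19, 8.15, 6.17 and 7.75 on high-phosphate arrays 1 to 4, and 5.73, 7.46, 6.10 and 7.95 on chow arrays 1 to 4. For 13 genes of B and plasma cells it was 7.79, 7.91, 6.11 and 7.10 on high phosphate and 5.68, 6.89, 6.29 and 7.65 on chow. High-phosphate arrays 1, 2 and 4 and chow arrays 2 and 4 are therefore called lymphocyte-rich below. Glycam1, a ligand made by the vessels of lymph nodes, was 12.78, 12.71, 12.20 and 12.68 on high phosphate and 8.95, 12.59, 12.17 and 12.69 on chow, so that chow array 1 alone was clearly lower. The mean of 20 hepatocyte genes was 5.73, 5.86, 8.21 and 10.13 on high phosphate against 5.82, 5.86, 5.91 and 5.87 on chow. High-phosphate arrays 3 and 4 therefore carried liver RNA. Alb, the serum protein albumin, was 10.97 and 12.36 on them and 5.03 to 5.97 on the other 6 arrays. Markers of sympathetic neurons or chromaffin cells (14 measured) were high on every abdominal array. They averaged 8.655, 8.73, 8.825 and 8.384 on high phosphate and 8.014, 7.699, 9.031 and 8.838 on chow. Thoracic averages were 5.67, 6.752 and 5.687 on high phosphate and 5.691, 5.705, 5.867 and 5.76 on chow. No fit handled these markers, so their part in the diet changes was not tested.

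Fat markers differed between the diets without overlap. The mean of 13 pan-adipocyte genes was 9.05, 8.82, 9.12 and 9.06 on high phosphate and 9.85, 9.79, 9.50 and 9.43 on chow. The mean of 15 brown adipocyte genes was 6.68, 6.86, 7.14 and 7.24 on high phosphate and 8.24, 8.03, 8.04 and 7.86 on chow. In such bulk samples fewer cells of a type and less RNA per cell cannot be told apart. The mean of 13 skeletal muscle genes varied within both groups, from 5.50 to 7.31 on high phosphate and from 5.67 to 7.98 on chow. Of the 13 changes 12 were below 0 (median -0.664), and 2 genes were called lower (15.4% against 5.06% of all genes).

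**Figure D1:**
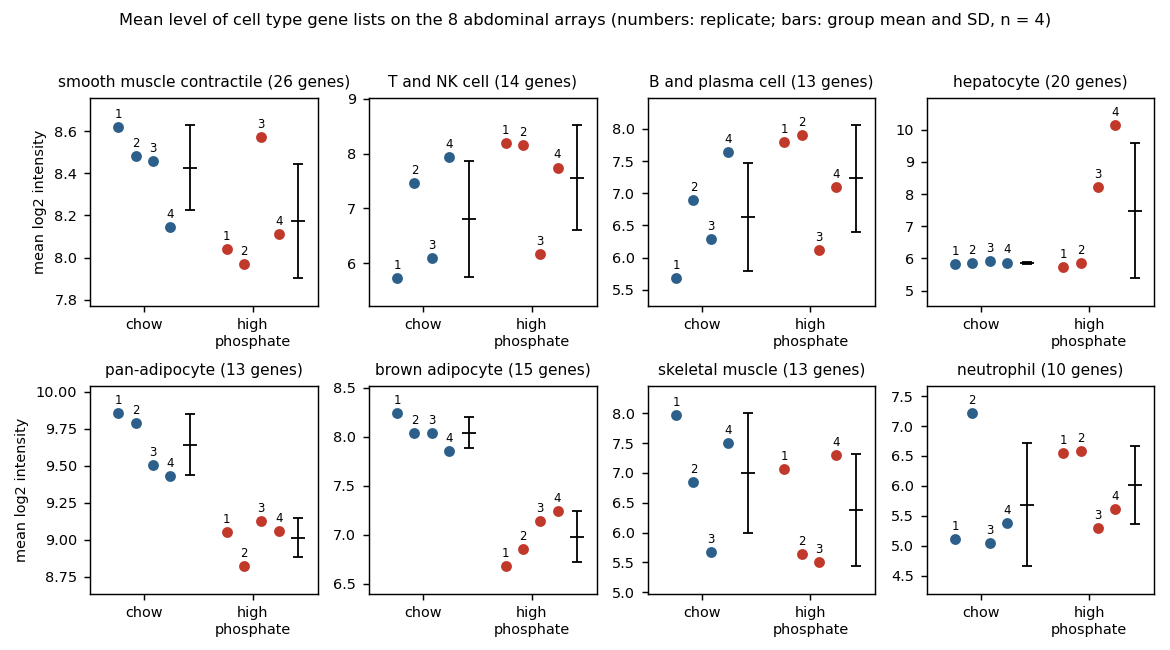
Mean log2 intensity of 8 cell type gene lists (y axes, each with its own range) on the 4 chow and 4 high-phosphate abdominal arrays, with the replicate number above each point and the group mean and SD (n = 4) as bars. The pan-adipocyte and brown adipocyte means do not overlap between the diets, T, NK and B cell means split each group, and hepatocyte genes are high on high-phosphate arrays 3 and 4 alone.

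Between the diets, 1554 of 22180 genes differed on the abdominal arrays, 7.01% of those tested. Of these 432 rose (1.95%) and 1122 fell (5.06%). The median change was 0.43 among genes that rose, -0.534 among genes that fell, and -0.008 over all genes. At least 2-fold changes were found in 30 genes that rose and 118 that fell. All 4 arrays of 1 diet lay above all 4 of the other for 1362 of the called genes, and for 2634 of all genes (11.9%, of which 4.12% higher and 7.75% lower on high phosphate). The count of called genes dropped to 891 without chow array 1 and to 1023 without high-phosphate array 2. Without high-phosphate array 3 it was 2249.

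The count depended on how the other tissues were handled. It was 1140 with the lymphocyte mean of each array as a covariate (5.14% of all genes, 1.51% higher and 3.63% lower). With the hepatocyte mean it was 1108 (5%, 1.45% higher and 3.55% lower), and with both 401 (1.81%, 0.464% higher and 1.34% lower). It was 705 when the 5 lymphocyte-rich arrays were the only abdominal arrays (3.18%, 0.555% higher and 2.62% lower). Without high-phosphate arrays 3 and 4 it was 1732 (7.81%, 3.16% higher and 4.65% lower). Without the 5 lymphocyte-rich arrays it was 137 (0.618%, 0.433% higher and 0.185% lower), but that fit has a single high-phosphate array, array 3, which carries liver RNA. No choice of arrays removes both tissues, since every high-phosphate array holds markers of one or the other. With the pan-adipocyte mean as a covariate the count was 55 (0.248%, 0.185% higher and 0.0631% lower). That mean itself separates the diets, and the median standard error of a change was 1.77 times as large in that fit. Adipoq, Retn, Plin1, Lipe and Pck1 are among the genes averaged in it, so their own changes in that fit are partly set by the covariate.

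**Figure D2:**
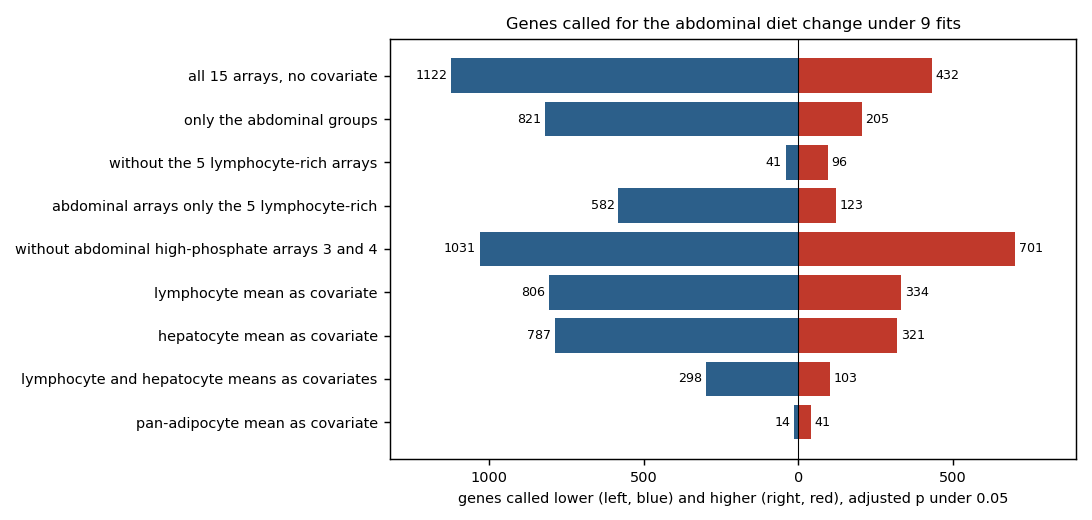
Number of genes called lower (blue, left) and higher (red, right) on high phosphate at an adjusted p under 0.05, on a linear axis, for 9 fits that differ in the arrays used or in a covariate. The count runs from 1122 lower and 432 higher with all arrays and no covariate to 14 lower and 41 higher with the pan-adipocyte mean as covariate.

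Genes of mitochondrial respiration fell together. All but 1 of 17 genes of the tricarboxylic acid cycle, which oxidises acetyl groups and feeds electrons to the respiratory chain, were called lower, with a median change of -0.88. Complex I, the entry point of electrons from NADH, had 31 of 33 genes called lower (median -0.717). Among complexes II to V, which pass the electrons to oxygen and make ATP, 30 of 34 were called lower (median -0.61). None of the genes in these 3 lists was called higher. The tricarboxylic acid cycle mean was 9.30, 9.26, 9.47 and 9.27 on high phosphate and 10.49, 10.21, 10.15 and 10.13 on chow, so its lowest chow array stood well above its highest high-phosphate array.

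Within the cycle, the largest change was that of Idh3a, the catalytic subunit of NAD-dependent isocitrate dehydrogenase. It was 8.61, 8.43, 8.64 and 8.32 on high-phosphate arrays 1 to 4 and 10.58, 10.22, 10.19 and 9.93 on chow arrays 1 to 4. This is 3.33-fold lower (-1.73 ± 0.201, adjusted p = 0.000132). Suclg1, the shared subunit of succinyl-CoA ligase, was 9.05, 8.97, 9.33 and 9.01 against 10.52, 10.48, 10.31 and 10.19 (-1.28 ± 0.109). The ATP-forming partner Sucla2 fell by 1.05 ± 0.115. Its GTP-forming counterpart Suclg2, picked after its values were seen, was the member not called (-0.22 ± 0.096, adjusted p = 0.223). Citrate synthase, Cs, fell by 1.02 ± 0.102.

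In complex I, Ndufa9 was 9.90, 10.04, 10.25 and 9.96 on high phosphate and 11.14, 10.94, 10.95 and 10.85 on chow. The groups lie apart, and the fall is 1.91-fold (-0.93 ± 0.0835, adjusted p = 3.08e-05). Ndufa1 was 8.71, 8.70, 8.93 and 8.80 against 10.24, 9.91, 9.92 and 9.82 (-1.19 ± 0.114), the largest change among the complex I genes. Atp5e, the epsilon subunit of ATP synthase, is a highly expressed gene whose high-phosphate arrays kept within 10.93 to 11.02 and whose chow arrays lay at 11.56 to 11.82. The fall of Atp5e, 0.67 ± 0.0592, is smaller in size but had an adjusted p of 2.7e-05. The cytochrome c1 gene Cyc1 fell by 1.09 and cytochrome c itself, Cycs, by 0.85.

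Machinery that builds mitochondria was lower as well, by smaller amounts. Of 49 mitochondrial ribosomal proteins 28 were called lower and none higher (median -0.339), among them Mrpl12 (-0.79 ± 0.0963), which had the smallest p of the list, and the count dropped to 15 without chow array 1 and 17 without high-phosphate array 4. Of 19 import and chaperone genes 9 fell, among them the inner membrane import subunit Timm50 (-0.77). Of 11 genes of ubiquinone synthesis 5 fell, including Coq6 and Coq7. Among 16 regulators of mitochondrial biogenesis 6 were called lower. They include the coactivators Ppargc1b (-0.84) and Ppargc1a (-1.15), the receptor Ppara (-1.0) and the brown fat factors Ebf2 (-0.81) and Prdm16 (-0.43). The call of Ppara ended without high-phosphate array 2 or 4 or chow array 1 or 2 (highest adjusted p = 0.094). That of Prdm16 ended without high-phosphate array 1 or 2 or chow array 1 or 3 (highest adjusted p = 0.0835). Of 29 mitochondrial carriers 8 fell (27.6% against 5.06% of all genes) and 1 rose (3.45% against 1.95%). The acylcarnitine carrier Slc25a20 changed by -1.39.

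The mitochondrial lists were lower on the same arrays as the fat markers. With the pan-adipocyte mean as a covariate 2 complex I genes, 1 gene of complexes II to V and 1 of the cycle were called, and the medians were -0.416, -0.304 and -0.399. There were 31, 30 and 16 calls with the lymphocyte covariate and 30, 30 and 16 with the hepatocyte covariate. With both, 23, 23 and 12 were called. Without the 5 lymphocyte-rich arrays the calls were 4, 4 and 2, with medians of -0.636, -0.572 and -0.812. How much of the fall lies in fat and how much in the vessel wall was not tested.

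**Figure D3:**
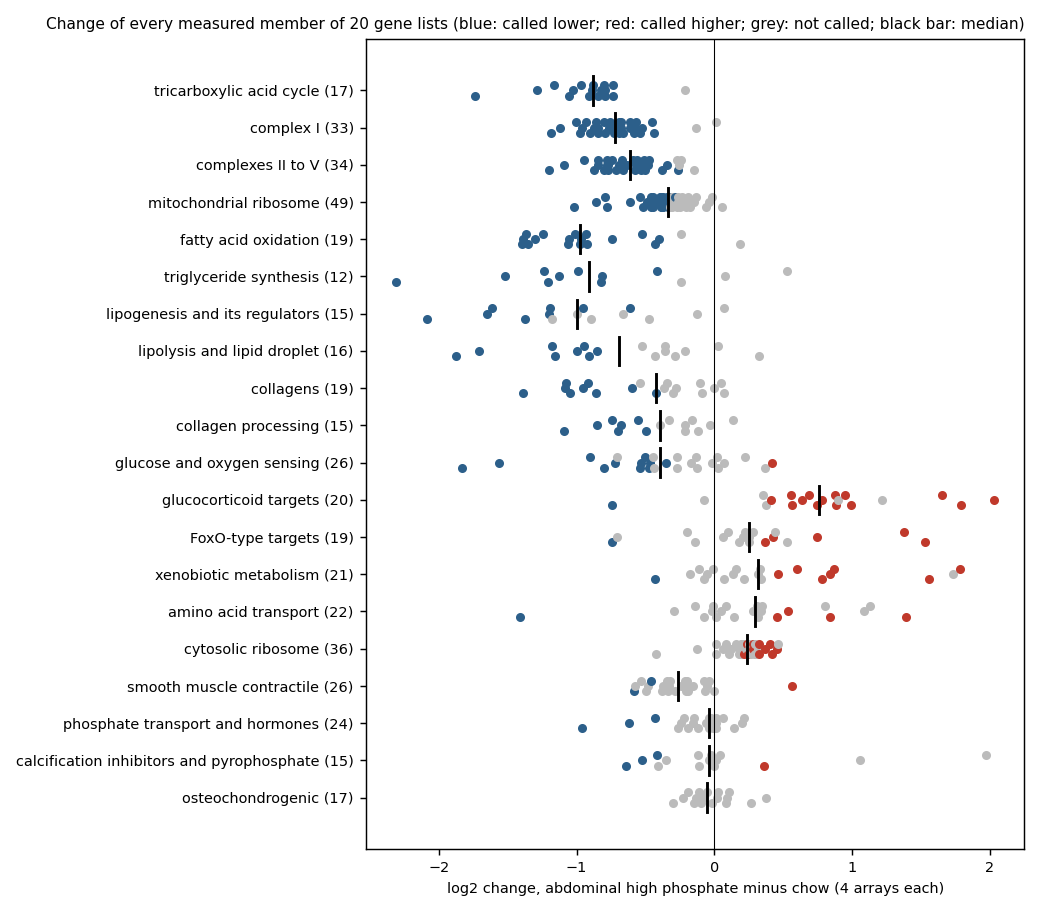
Change of every measured member of 20 gene lists, high phosphate minus chow on the log2 scale (x axis), with 1 row for each list and the number of genes in parentheses. Blue points were called lower, red ones higher and grey ones not called, and black bars mark medians, such as -0.999 for lipogenesis and 0.763 for glucocorticoid targets.

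Brown fat genes had the lowest median of the lists. Of 15 listed, 11 were called lower and 0 higher (median -1.016). The changes of 3 members were above 0, the highest 1.254. The list median was -1.41 without high-phosphate arrays 3 and 4, which carry liver RNA, and -1.338 with the hepatocyte covariate. Ucp1, the uncoupling protein that lets brown fat turn fuel into heat, was 7.01, 9.03, 8.43 and 7.34 on high phosphate and 11.83, 11.41, 11.63 and 11.36 on chow. Every high-phosphate array lay below every chow array, and the high-phosphate arrays spread more widely (SD 0.94 against 0.21, n = 4 each). The mean fall was 12.2-fold (-3.61 ± 0.367, adjusted p = 5.7e-05). Cox7a1, a subunit of cytochrome c oxidase found in muscle and brown fat, was 7.19, 8.17, 8.28 and 7.74 against 10.74, 10.30, 10.28 and 10.10 (5.69-fold lower). Cox8b, another such subunit, was 9.30, 9.64, 9.79 and 9.56 against 11.43, 11.17, 11.31 and 10.99 (3.14-fold lower). Ucp3 fell 3.0-fold (-1.58 ± 0.171). With the pan-adipocyte covariate Cox7a1 (-1.95) and Cox8b (-1.18) stayed called, while Ucp1 changed by -3.24 without a call.

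Genes that all fat cells express changed less evenly. Of 13 pan-adipocyte genes 6 were called lower (median -0.367) and none higher. Plin1, which coats lipid droplets, was 6.84, 6.12, 6.31 and 6.40 on high phosphate and 8.32, 8.38, 8.00 and 7.81 on chow (3.27-fold lower). Retn, the hormone resistin, fell by 1.56, and Adipoq, the hormone adiponectin, by 0.48. The call of Adipoq ended without high-phosphate array 1 or 2 or chow array 1 or 2 (highest adjusted p = 0.0837). In contrast Fabp4, the fatty acid carrier of fat cells, was 12.59, 12.56, 12.63 and 12.66 against 12.67, 12.86, 12.82 and 12.72. Its change of -0.16 ± 0.0471 was not called (adjusted p = 0.0628). Fabp4 lies near the highest value of any probe set, 13.33, and whether this limits its change was not tested. Lpl, the lipase that releases fatty acids from lipoproteins, and Pparg, the master factor of fat cells, both picked after their values were seen, changed by -0.07 ± 0.0851 and -0.26 ± 0.133 without a call.

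Most genes of fatty acid oxidation fell. Of 19 genes 17 were called lower and none higher (median -0.974). Hadha, the alpha subunit of the trifunctional protein, lay at 9.78 to 10.03 on high phosphate and at 11.17 to 11.42 on chow, with a wide gap between the groups (2.55-fold lower). Acaa2, the thiolase of the last step, fell by 1.4 ± 0.146, and Cpt2, which hands acyl groups to the matrix, changed by -1.37 ± 0.153. Beside them 6 of 17 peroxisomal genes and 9 of 18 genes of branched-chain amino acid breakdown fell, including Ech1 (-1.21), Pcca (-1.03) and Mccc1 (-1.0). None of the 17 oxidation genes kept a call with the pan-adipocyte covariate or without the 5 lymphocyte-rich arrays, with medians of -0.434 and -0.941.

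Synthesis and storage of fat fell too. Agpat2, which adds the second acyl chain to the glycerol backbone, was 6.55, 6.18, 6.72 and 6.49 on high phosphate and 9.15, 8.67, 8.63 and 8.72 on chow. The groups lie far apart, and Agpat2 fell 4.95-fold (-2.31 ± 0.188, adjusted p = 1.53e-05). Of 12 genes of triglyceride synthesis 9 were called lower (median -0.907), among them Dgat2 (-1.52 ± 0.235) and Mogat1 (-0.82). Agpat2 alone of them kept its call with the pan-adipocyte covariate (-1.48, adjusted p = 0.019).

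Lipogenesis had 8 of 15 genes called lower and a median of -0.999. Fasn, fatty acid synthase, was 8.81, 7.69, 8.08 and 8.62 on high phosphate and 11.12, 10.03, 9.42 and 10.97 on chow. Chow arrays 1 and 4 were the highest, and the groups do not overlap (4.25-fold lower, adjusted p = 0.0111). Scd1, the stearoyl-CoA desaturase, fell by 1.37 ± 0.302. Acly, which supplies cytosolic acetyl-CoA and was picked after its values were seen, shows the same split of chow arrays, 10.03 and 9.80 on arrays 1 and 4 and 8.58 and 8.67 on arrays 2 and 3. It was not called (-0.66 ± 0.352, adjusted p = 0.322). The same held for Acaca, acetyl-CoA carboxylase, likewise picked after its values were seen (-1.0 ± 0.311, adjusted p = 0.0694). With both tissue covariates 1 lipogenesis gene was called, against 8.

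Signals that control lipolysis were among the largest falls. Prkar2b, which holds protein kinase A in its inactive form, was 9.05, 8.14, 8.90 and 8.31 against 10.68, 10.56, 10.46 and 10.20 (3.67-fold lower). Hcar1, the receptor through which lactate restrains lipolysis, was 6.15, 5.67, 6.20 and 5.75 against 7.95, 7.66, 8.09 and 7.42 (3.56-fold lower). Hcar2, its neighbour in function that binds hydroxybutyrate, fell 2.54-fold. Of 16 genes of lipolysis and the lipid droplet 8 were called lower, including Mgll, the monoglyceride lipase (-1.18), Lipe, hormone-sensitive lipase (-0.99), and Plin2 (-1.15). Klk1, a tissue kallikrein, fell 3.38-fold, and its fall was larger with the pan-adipocyte covariate (-2.87) than without (-1.76 ± 0.265).

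**Figure D4:**
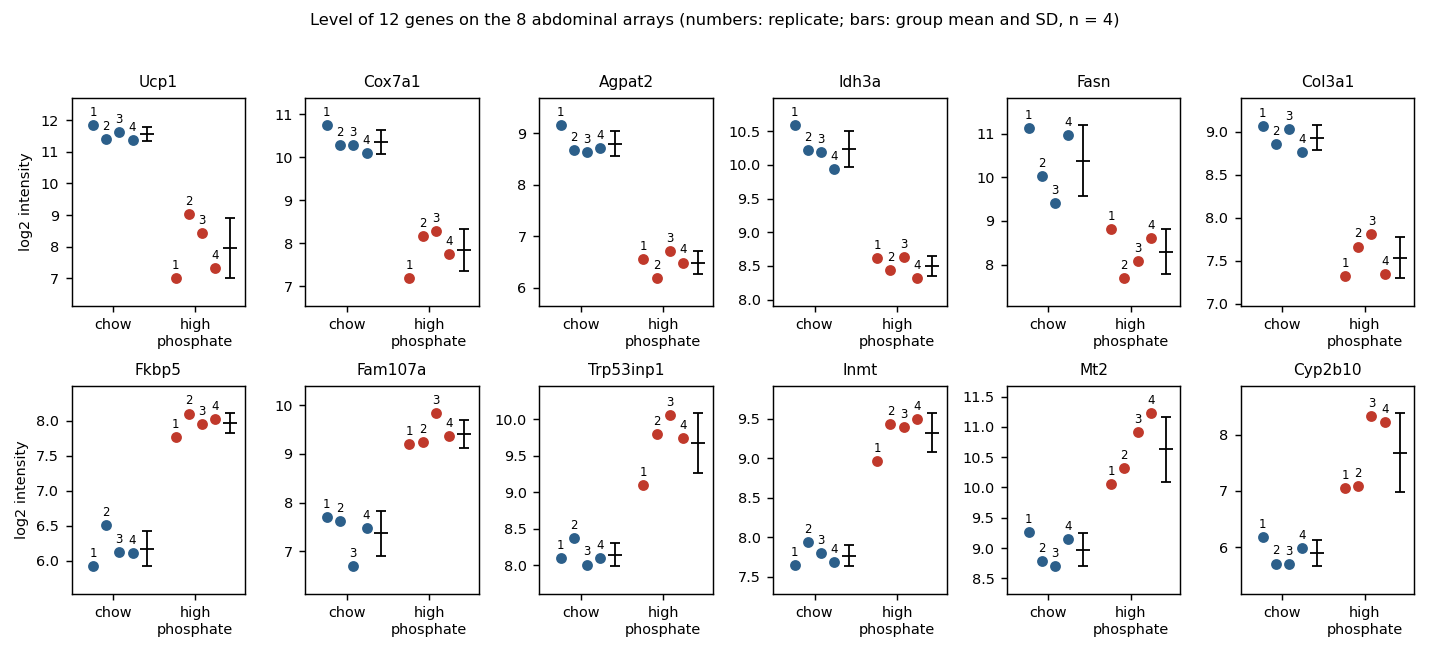
Log2 intensity (y axes, each with its own range) of 12 genes on the 4 chow and 4 high-phosphate abdominal arrays, with the replicate number above each point and the group mean and SD (n = 4) as bars. The upper row holds genes that fell and the lower row genes that rose, and none of the 12 overlaps between the diets. Cyp2b10 and Mt2 are higher on high-phosphate arrays 3 and 4 than on arrays 1 and 2.

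Targets of the glucocorticoid receptor formed the clearest group that rose. The receptor is a steroid-bound transcription factor active in nearly all cells, and fasting and stress raise its ligand. Of 20 listed targets 14 were called higher and 1 lower, with a median change of 0.763. Fkbp5, an immunophilin that binds the receptor complex, was 7.77, 8.10, 7.96 and 8.02 on high phosphate and 5.93, 6.52, 6.13 and 6.12 on chow. It rose 3.46-fold (1.79 ± 0.163, adjusted p = 3.11e-05), and chow array 2 stood above the other chow arrays. Fam107a, an actin-binding protein, was 9.20, 9.23, 9.83 and 9.37 against 7.70, 7.62, 6.70 and 7.47 (4.09-fold higher). Sult1a1, a sulfotransferase, rose by 0.78 ± 0.124 and Ddit4, an inhibitor of the growth kinase mTOR, by 1.00 ± 0.153. Pdk4, which blocks entry of pyruvate into the cycle, was the member that fell (-0.74 ± 0.184). Its call ended without high-phosphate array 4 or chow array 1 or 2 (highest adjusted p = 0.0792).

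The receptor gene itself, Nr3c1, fell by 0.32. That call ended without high-phosphate array 2, 3 or 4 or chow array 1 or 2 (highest adjusted p = 0.104). Of 9 adrenal cortex genes limma called none, and none had an unadjusted p under 0.05, and their mean was 5.29, 5.98, 5.40 and 5.38 on high phosphate and 5.55, 5.46, 5.51 and 5.31 on chow, with high-phosphate array 2 above the rest. The number of glucocorticoid targets called higher was 14 with the lymphocyte covariate. It was 7 with the hepatocyte covariate, 6 with both, 7 without high-phosphate arrays 3 and 4, 7 with the 5 lymphocyte-rich arrays alone and 6 without them. With the pan-adipocyte covariate 6 were called and the median change was 0.984.

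Promoter stretches of genes called here are printed to set the sequence beside the change. They come from RefSeq windows on GRCm38.p6, cover 250 bases before to 30 after a transcription start, and run 5′ to 3′ along the gene's strand. Of the measured genes, 16990 have such a window of 300 bases. Capitals mark a motif, searched on both strands. AGAACA is the core of a glucocorticoid receptor site, CACGTG the E-box of clock factors, TGCGCNC the core of the metal response element and AAGGTCA the site of estrogen-related receptors. Fam107a (chr14:8309748-8310027, minus strand), Tsc22d3 (chrX:140600493-140600772, minus strand) and Per1 (chr11:69098699-69098978, plus strand) are glucocorticoid targets that rose. Mt2 (chr8:94172368-94172647, plus strand) is the metallothionein that rose most and Atp5k (chr5:108434370-108434649, minus strand) an ATP synthase subunit that fell.
Fam107a: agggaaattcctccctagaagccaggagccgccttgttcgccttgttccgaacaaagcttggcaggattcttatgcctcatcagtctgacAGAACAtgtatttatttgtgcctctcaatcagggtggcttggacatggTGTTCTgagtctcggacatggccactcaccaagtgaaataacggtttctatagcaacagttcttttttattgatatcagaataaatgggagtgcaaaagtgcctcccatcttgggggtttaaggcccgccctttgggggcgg
Tsc22d3: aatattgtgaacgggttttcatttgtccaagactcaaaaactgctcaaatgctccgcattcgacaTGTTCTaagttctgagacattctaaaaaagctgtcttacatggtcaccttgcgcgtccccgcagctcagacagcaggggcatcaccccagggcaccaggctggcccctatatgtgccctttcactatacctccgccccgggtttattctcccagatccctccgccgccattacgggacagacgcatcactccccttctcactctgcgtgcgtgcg
Per1: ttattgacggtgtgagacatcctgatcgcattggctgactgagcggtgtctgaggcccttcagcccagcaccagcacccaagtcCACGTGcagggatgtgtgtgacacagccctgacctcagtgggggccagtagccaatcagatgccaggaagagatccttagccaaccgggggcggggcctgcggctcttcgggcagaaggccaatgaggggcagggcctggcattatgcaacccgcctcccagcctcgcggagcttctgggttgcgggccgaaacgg
Mt2: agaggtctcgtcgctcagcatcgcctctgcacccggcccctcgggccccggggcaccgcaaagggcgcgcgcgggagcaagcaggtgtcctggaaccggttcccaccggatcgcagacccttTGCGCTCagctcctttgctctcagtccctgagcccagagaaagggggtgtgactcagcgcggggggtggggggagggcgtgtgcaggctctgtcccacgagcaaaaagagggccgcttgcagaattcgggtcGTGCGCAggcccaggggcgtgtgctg
Atp5k: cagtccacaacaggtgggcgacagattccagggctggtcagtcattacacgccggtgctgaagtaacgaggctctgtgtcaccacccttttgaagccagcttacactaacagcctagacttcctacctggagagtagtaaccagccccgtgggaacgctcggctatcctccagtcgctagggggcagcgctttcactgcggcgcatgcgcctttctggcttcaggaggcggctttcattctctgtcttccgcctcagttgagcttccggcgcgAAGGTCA

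AGAACA or its reverse occurs at 2 places before the start of Fam107a and at 1 before that of Tsc22d3. It is held by 3 of the 12 glucocorticoid targets that rose and have a window, the third being Sult1a1, which is 25% against 18.8% of all measured genes with a window. The window of Fkbp5 holds none. The E-box is in the windows of 3 of the 4 clock genes that rose, Ciart, Per1 and Tef, against 9.19% of all. Tsc22d3 lost its call without high-phosphate array 2, 3 or 4 or chow array 1 or 3 (highest adjusted p = 0.112), and Ciart and Tef are taken up with the clock. The metal response form is in those of Mt1 and Mt2 and in 22.1% of all. Of the genes that fell and have at least 1 window, AAGGTCA is held by 4 of 23 of complexes II to V, Atp5e, Atp5k, Atp5l and Sdhd (17.4% against 4.67% of all such genes), by 0 of 28 of complex I, by 1 of 15 of the cycle and by 1 of 15 of fatty acid oxidation. A match is only a string of letters in this window.

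Period and output genes of the clock were mixed. Of 18 clock genes 4 rose (22.2% against 1.95% of all genes) and 2 fell (11.1% against 5.06%). Per1, a repressor of the clock and a glucocorticoid target, was 7.79, 7.64, 7.54 and 7.80 on high phosphate and 7.02, 7.27, 6.56 and 6.39 on chow (1.84-fold higher). Noct, a clock-driven phosphatase, fell by 1.20. The core activator Arntl, picked after its values were seen, changed by -0.27 ± 0.169 without a call. The call of Per1 ended without high-phosphate array 1 or 4 or chow array 3 (highest adjusted p = 0.0605), and that of Ciart without chow array 1 (adjusted p = 0.0532). Tef lost its call without high-phosphate array 1, 3 or 4, chow array 3 or 4 or thoracic chow array 4 (highest adjusted p = 0.115). The number of clock genes called was 2 without high-phosphate array 1 or chow array 3 and 3 without high-phosphate array 4 or chow array 1.

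Genes that FoxO factors raise when insulin signalling is low rose in part. Of 19 listed, 5 were called higher (26.3% against 1.95% of all genes) and Pdk4 lower (5.26%, near the 5.06% of all genes), with a median of 0.252. Trp53inp1, a promoter of autophagy, was 9.10, 9.79, 10.06 and 9.74 on high phosphate and 8.11, 8.38, 8.01 and 8.10 on chow (2.88-fold higher). Depp1, a FoxO target that changes redox balance, was 7.75, 8.48, 8.46 and 8.20 against 6.94, 6.84, 7.01 and 6.59 (2.6-fold higher). In both, high-phosphate array 1 was the lowest of its group. Sesn1, a leucine sensor that restrains mTOR, rose by 0.74 ± 0.114. Igfbp3, which binds insulin-like growth factors, rose 2.4-fold, from 8.71, 8.76, 8.56 and 9.16 on chow to 9.91, 10.20, 9.92 and 10.22 on high phosphate. Of 19 genes of the insulin and feeding response it alone rose (5.26% against 1.95% of all genes). In that list 6 fell (31.6% against 5.06%), among them the insulin receptor substrate Irs1 (-0.92) and Pck1 (-1.24), which makes glycerol in fat. FoxO-type calls ranged from 1 to 7 higher over the fits that handle lymphoid, liver or fat RNA.

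Enzymes and carriers that handle foreign compounds rose in part. Of 21 listed, 7 were called higher (33.3% against 1.95% of all genes) and 1 lower (4.76%, near the 5.06% of all genes), with a median of 0.316. Inmt, which methylates amines, was 8.97, 9.44, 9.40 and 9.50 on high phosphate and 7.65, 7.94, 7.81 and 7.68 on chow (2.94-fold higher). Fmo2, a flavin monooxygenase, was 10.40, 10.60, 11.04 and 10.77 against 9.82, 10.15, 9.84 and 9.51 (1.83-fold higher). Cyp1b1, a cytochrome P450, rose by 0.84 ± 0.129 and Abcb1b, a drug efflux pump, by 0.60. Cyp2b10, another cytochrome P450, was 7.06, 7.09, 8.34 and 8.23 against 6.18, 5.71, 5.70 and 5.98 (3.45-fold higher). It was highest on the arrays with liver RNA, and without them its change was 1.18 in place of 1.78.

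Other genes that rose were higher on the arrays with liver RNA as well. Mt2, a metallothionein that binds zinc, was 10.06, 10.31, 10.91 and 11.22 on high phosphate and 9.27, 8.78, 8.71 and 9.15 on chow (3.14-fold higher). Without high-phosphate arrays 3 and 4 its change was 1.21, and that of its sister Mt1 0.43 in place of 0.69. Serpina3n, an acute-phase protease inhibitor, was 9.48, 9.54, 10.18 and 10.88 against 8.43, 8.23, 8.74 and 8.67. It changed by 1.5 ± 0.384 with all arrays and by 1.00 without these arrays. Its call ended without high-phosphate array 4 or chow array 1 or 2 (highest adjusted p = 0.0888). In the thoracic segment Cyp2b10, Mt2, Mt1 and Serpina3n changed by 2.09, 1.73, 0.815 and 1.595. The hepatocyte mean there was 5.92, 6.08 and 6.01 on high phosphate and 6.28, 5.84, 5.98 and 6.81 on chow. The part of liver RNA in these rises was not tested. In the opposite direction Orm3, a member of the acute-phase orosomucoid family that fat expresses, was 6.94, 6.83, 7.50 and 7.67 against 9.20, 8.98, 8.83 and 8.94 (3.36-fold lower).

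Some carriers of amino acids rose. Of 22 listed, 4 rose (18.2% against 1.95% of all genes) and 1 fell (4.55% against 5.06%), with a median of 0.296. Slc7a8, a carrier of large neutral amino acids, was 8.37, 8.91, 9.73 and 9.49 on high phosphate and 7.57, 7.31, 7.92 and 8.14 on chow (2.63-fold higher). Its partner chain Slc3a2 rose by 0.53 and the related carrier Slc43a1 by 0.84, while Slc36a2, a proton-coupled carrier found in brown fat, fell by 1.41. Without high-phosphate arrays 3 and 4 the change of Slc7a8 was 0.91.

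Several genes with large and even rises belong to none of these groups. Slc10a6, a carrier of sulfated steroids, had the smallest p of all genes that rose. It was 6.79, 6.95, 7.08 and 6.97 on high phosphate and 5.79, 5.94, 5.70 and 5.99 on chow (2.13-fold higher, 1.09 ± 0.0805, adjusted p = 1.53e-05). Clca3a1, a secreted protein that modulates chloride channels, was 8.05, 7.95, 7.93 and 7.98 against 6.38, 6.96, 6.63 and 6.81 (2.43-fold higher), with an SD of 0.05 among the high-phosphate arrays. Apod, a lipid-binding lipocalin, rose by 1.04 ± 0.188. Mylip, a ligase that sends the receptor for low-density lipoprotein to degradation, rose by 0.79 ± 0.0802. Rpl39, a ribosomal protein, rose by 0.93 ± 0.128.

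Collagens fell in part. Of 19 chains 9 were called lower and none higher (median -0.423). Col3a1, the main chain of the distensible collagen of arteries, was 7.32, 7.67, 7.81 and 7.35 on high phosphate and 9.06, 8.85, 9.03 and 8.76 on chow. Its fall was 2.62-fold (-1.39 ± 0.112, adjusted p = 1.53e-05). Col6a3, of the beaded-filament collagen, was 6.69, 6.45, 6.71 and 6.48 against 7.86, 7.63, 7.58 and 7.55 (2.11-fold lower). Col1a2, a chain of the main fibrillar collagen, was 10.04, 9.79, 10.51 and 9.99 against 11.24, 11.14, 11.14 and 10.99 (2.06-fold lower), with high-phosphate array 3 nearest to chow. Col1a1, Col6a1, Col14a1 and Col15a1 fell by 0.86, 0.91, 1.08 and 0.95.

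Enzymes that fold and cross-link collagen were lower beside it. Of 15 listed, 7 were called lower and none higher (median -0.392). They include the chaperone Serpinh1 (-1.09), the hydroxylases P4ha1 (-0.68 ± 0.0828) and Plod2 (-0.85), and the crosslinking oxidase Loxl1 (-0.70). Cd248, a surface receptor of fibroblasts and pericytes, was 7.11, 6.93, 7.30 and 7.32 on high phosphate and 8.60, 8.28, 8.29 and 8.11 on chow (2.22-fold lower). Lum, the proteoglycan lumican, fell by 1.5, while Dcn, the abundant proteoglycan decorin, changed by 0.14 without a call. Of 13 proteoglycans 2 fell (15.4%), of 14 elastic fibre genes 4 (28.6%) and of 18 matrix proteases 5 (27.8%), against 5.06% of all genes. None of them rose, where 1.95% of all genes did, so few rises could be looked for in lists of this size.

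Collagen calls held in part when other tissue was handled. With the pan-adipocyte covariate Col3a1 (-1.31) and Col6a3 (-0.83) stayed called. Against 9 without a covariate, the number of collagens called was 8 with the lymphocyte covariate, 10 with the hepatocyte covariate and 8 with both. Without the 5 lymphocyte-rich arrays 4 were called and the median was -0.187. The change of Col1a2 was -0.68 in that fit, in which array 3 is the only high-phosphate array. Elastic fibre and proteoglycan medians went from -0.385 and -0.313 to -0.12 and 0.0, with no gene called.

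Of 26 contractile genes of smooth muscle 1 rose and 2 fell, which is 11.5% called against 7.01% of all genes, and 25 changes were below 0 (median -0.262). Acta2, smooth muscle actin, was 10.98, 10.87, 11.48 and 10.91 on high phosphate and 11.73, 11.48, 11.64 and 11.23 on chow. Array 3 overlapped the chow group, and the fall was 1.38-fold (adjusted p = 0.0373). Its call ended without each of 8 single arrays, namely high-phosphate arrays 1, 2 and 4, chow arrays 1, 2 and 3 and thoracic chow arrays 1 and 4 (highest adjusted p = 0.136). Vcl, the adhesion protein vinculin, fell by 0.58 ± 0.109, and the intermediate filament gene Synm rose by 0.56. High-phosphate array 3, the lowest of its group in lymphocyte markers, had the highest contractile mean, and the part of the markers in the result was not tested. Without the 5 lymphocyte-rich arrays the median was -0.04 and without high-phosphate arrays 3 and 4 it was -0.43, with 10 genes called lower. The count of calls was 13 without high-phosphate array 3 and 5 without chow array 4.

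Of 22 vasoactive receptors and ligands, which set vessel tone, 3 were called lower and none higher (13.6% lower against 5.06% of all genes), namely the G protein regulator Rgs5 (-0.31 ± 0.0713), the angiotensin receptor Agtr1b (-0.50 ± 0.123) and the natriuretic peptide clearance receptor Npr3 (-0.81 ± 0.201). Each of the 3 calls ended without chow array 1 or high-phosphate array 2, that of Agtr1b also without chow array 2, and that of Npr3 also without high-phosphate array 1 or 4 or chow array 2 (highest adjusted p = 0.0598, 0.0732 and 0.089). Of 21 potassium and calcium channel genes limma called none, with 7 at an unadjusted p under 0.05.

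Genes of phosphate transport and its hormones, the subject of the diet, were mostly not called. Of 24 listed, 3 were called lower and none higher (median -0.039), a share of 12.5% against 7.01% of all genes. The importers Slc20a1 and Slc20a2 of vascular cells changed by 0.20 ± 0.147 and -0.15 ± 0.135, and the exporter Xpr1 by 0.06 ± 0.0761. Slc20a1 was 8.36, 8.13, 7.63 and 8.02 on high phosphate and 7.75, 7.85, 7.56 and 8.19 on chow, and the groups overlapped widely. Among receptors, Fgfr1 changed by -0.12 ± 0.0933 and the vitamin D receptor Vdr by 0.22 ± 0.089. The co-receptor Kl and the hormone Fgf23 lay between 4.67 and 5.21 on all 8 arrays.

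The 3 members called lower were Klb, Pth1r and Phex. Klb, the co-receptor of metabolic fibroblast growth factors active in fat cells, was 6.60, 6.19, 7.21 and 6.54 on high phosphate and 7.87, 7.66, 7.74 and 7.11 on chow (1.94-fold lower). High-phosphate array 3 overlapped with chow array 4. Pth1r, the receptor of parathyroid hormone, was 5.86, 5.80, 5.91 and 5.99 against 6.46, 6.30, 6.24 and 6.28, without overlap (1.35-fold lower, adjusted p = 0.0198). Phex, a peptidase that restrains fibroblast growth factor 23, was 4.96, 4.85, 5.40 and 5.22 against 6.03, 5.97, 5.26 and 5.64 (1.54-fold lower). The calls of Pth1r and Phex ended without high-phosphate array 1 or 2 or chow array 1, and that of Phex also without chow array 2 (highest adjusted p = 0.0775 and 0.0932). With the pan-adipocyte covariate Klb, Pth1r and Phex changed by -0.49, -0.23 and -0.13 and none was called.

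Calcification inhibitors and pyrophosphate enzymes changed in both directions. Pyrophosphate blocks crystal growth, is released by nucleotide pyrophosphatases and is destroyed by alkaline phosphatase. Of 19 listed 15 were measured, and of these 1 rose and 3 fell (median -0.041). Enpp1 and Spp1 are not among the 15. That is 6.67% higher against 1.95% of all genes and 20% lower against 5.06%. Alpl, tissue-nonspecific alkaline phosphatase, was 6.41, 6.51, 6.78 and 6.76 on high phosphate and 7.09, 6.96, 7.16 and 6.91 on chow (1.33-fold lower, adjusted p = 0.0246). Enpp3, a nucleotide pyrophosphatase, was 7.17, 7.06, 7.83 and 7.64 against 8.18, 8.25, 8.05 and 7.79 (1.56-fold lower), with array 3 above chow array 4. Nt5e, which turns AMP into adenosine, was 8.22, 8.39, 8.33 and 8.47 against 8.04, 8.08, 7.82 and 8.01 (1.29-fold higher). Entpd5, a nucleoside diphosphatase, fell by 0.53 ± 0.143. All 4 calls, of Alpl, Enpp3, Nt5e and Entpd5, ended without high-phosphate array 2 or without chow array 1, so that none of the list was called (highest adjusted p over the arrays = 0.0814, 0.078, 0.0802 and 0.134). Without high-phosphate array 1 or 4 or chow array 2 the list had 2 calls, and without chow array 3 it had 1. Entpd5 lost its call without thoracic chow array 1 or 4 too.

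Other inhibitors in the list were not called. Mgp, matrix Gla protein, was 11.62, 11.73, 12.16 and 11.90 on high phosphate and 12.12, 12.02, 12.10 and 11.65 on chow (-0.12 ± 0.124). Ank, the pyrophosphate exporter, changed by -0.41 ± 0.119 with an adjusted p of 0.0539. Ahsg, the liver-made inhibitor fetuin-A, was 5.15, 5.66, 8.60 and 10.80 against 5.60, 5.38, 5.90 and 5.46, and Fetub, fetuin-B, was 4.98, 4.46, 5.65 and 7.39 against 4.75, 4.71, 4.42 and 4.35. Both were high on the arrays with liver RNA, and without these arrays their changes were -0.18 and 0.16.

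Of 20 osteochondrogenic genes listed 17 were measured, and limma called none of them. Of the 17, 3 had an unadjusted p under 0.05, and the median change was -0.055. Runx2 and Spp1 are not among the 17, so the list says nothing about them. Sox9, the cartilage factor, was 6.44, 6.44, 6.52 and 6.44 on high phosphate and 6.44, 6.59, 6.62 and 6.52 on chow (-0.08 ± 0.071). Msx2, the bone factor Sp7, and Bmp2, a bone morphogenetic protein, changed by -0.06 ± 0.144, -0.10 ± 0.082 and 0.08 ± 0.102. The bone matrix gene Bglap changed by -0.19 ± 0.153, and Ibsp and Dmp1 lay between 3.69 and 4.34 on all 8 arrays. Largest in the list was Tnfsf11 (0.38 ± 0.271, adjusted p = 0.489), a cytokine also made by T cells.

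Some cytosolic ribosomal protein genes rose by small amounts. Of 36 listed, 12 were called higher and none lower (median 0.24), with Rps9 (0.40) and Rps18 (0.28) among them. The list mean was 9.17, 9.10, 8.97 and 9.03 on high phosphate and 8.75, 8.94, 8.79 and 8.94 on chow. It was highest on the lymphocyte-rich high-phosphate arrays 1 and 2, and 4 genes were called with the lymphocyte covariate and 1 with both covariates. The count was 2 without chow array 1, 3 without high-phosphate array 1 or chow array 3, 5 without high-phosphate array 2 or 4, and 7 without thoracic chow array 4.

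Of 18 macrophage genes 3 rose, 16.7% against 1.95% of all genes, and 15 of the changes were above 0 (median 0.391). Among the 3 is the complement gene C1qb, which was 7.81, 7.92, 7.62 and 7.83 on high phosphate and 7.27, 7.51, 7.24 and 7.49 on chow. Its call ended without high-phosphate array 1, 2 or 4 or chow array 1 or 3 (highest adjusted p = 0.0812). The macrophage count was 1 without high-phosphate array 2 or 4 or chow array 1 or 3, 5 without chow array 4 and 8 without high-phosphate array 3. Of 24 interferon response genes Ifi27, a small membrane protein, alone was called. That is 4.17% called lower, near the 5.06% of all genes. Ifi27 fell from 11.01, 10.78, 10.85 and 10.63 on chow to 9.67, 9.66, 9.86 and 9.63 on high phosphate (2.16-fold). Among 14 genes of T and NK cells, 13 of B and plasma cells, 10 neutrophil, 15 antigen presentation and 20 hepatocyte genes limma called none, and 1, 2, 0, 0 and 14 of them had an unadjusted p under 0.05. Outside these lists Igkv9-120, an immunoglobulin variable gene picked after its values were seen, was called higher, at 8.62, 8.90, 7.93 and 9.63 on high phosphate and 5.07, 6.85, 6.42 and 8.43 on chow (adjusted p = 0.0384). Its call ended without high-phosphate array 1, 2 or 4, chow array 1, 2 or 3, thoracic high-phosphate array 1 or 2 or thoracic chow array 4 (highest adjusted p = 0.129).

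Other cell types and stress programmes gave calls in both directions. Of 18 endothelial genes 3 fell and 1 rose, of 13 adventitial fibroblast genes 4 fell and 2 rose, and of 10 mast cell genes 3 fell. That is 16.7%, 30.8% and 30% called lower, against 5.06% of all genes. The shares called higher were 5.56%, 15.4% and 0%, against 1.95% of all genes. Of 7 lymphatic endothelial genes 2 rose (28.6%), among them Mmrn1 (0.80 ± 0.127), and none fell. Of 22 antioxidant genes 5 fell (22.7%) and 2 rose (9.09%), and Sod2, the mitochondrial superoxide dismutase, fell by 1.11. Of 16 iron handling genes 3 fell (18.8%) and 2 rose (12.5%), and the iron uptake receptor Tfrc fell by 1.33. Of 22 genes of endoplasmic reticulum stress 3 fell and 1 rose, of 14 heat shock genes 2 fell, and of 32 proteasome genes 2 fell. The share called lower was 13.6%, 14.3% and 6.25% in these lists, against 5.06% of all genes, so that of the proteasome is near that of all genes. Of 26 genes of glucose use and oxygen sensing 11 fell (42.3%) and 1 rose (3.85%). Those that fell include the lactate carrier Slc16a1, from 8.56, 7.93, 7.94 and 7.67 on chow to 6.38, 6.70, 6.46 and 6.31 on high phosphate (2.95-fold lower). Of 19 immediate early genes limma called none, with 3 at an unadjusted p under 0.05.

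A set of 56 genes was called with all arrays and in each of 5 fits that handle lymphoid or liver RNA, 22 higher and 34 lower. The 5 fits are the 3 that leave arrays out and the 2 with the lymphocyte or the hepatocyte mean as covariate. With both means together 53 of the 56 were called. Those that rose include Fam107a, Fkbp5, Inmt, Trp53inp1, Slc10a6, Clca3a1, Igfbp3, Mt2 and Cyp2b10. Those that fell include Ucp1, Ucp3, Cox7a1, Cox8b, Agpat2, the cycle genes Suclg1 and Sucla2, the complex I genes Ndufa1, Ndufa3, Ndufa9 and Ndufa11, and the collagens Col3a1, Col6a1, Col6a3 and Col15a1. Over these fits the change of Fkbp5 ranged from 1.65 to 1.93, that of Agpat2 from -2.43 to -2.17 and that of Col3a1 from -1.43 to -1.24. With the pan-adipocyte covariate 17 of the 56 were called.

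Of the 55 genes called with the pan-adipocyte covariate, 39 were also called without it. Of the glucocorticoid targets 6 rose there, with Fkbp5 at 1.99, Fam107a at 2.40, Per1 at 1.76 and Zbtb16, a zinc finger repressor picked after its values were seen, at 1.61. Without that covariate Zbtb16 lost its call when chow array 3 was left out (adjusted p = 0.0513). Slc10a6 (1.18), Trp53inp1 (1.56), Clca3a1 (1.42), Cyp2d22, a cytochrome P450 (1.03), and Rpl39 (1.23) were called there too.

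The thoracic segment gave changes of mostly the same direction. There 548 genes were called (2.47%), 309 higher (1.39%) and 239 lower (1.08%). Of the abdominal calls 395 were called in both segments, all with the same sign, which is 25.4% of the abdominal and 72.1% of the thoracic calls. The change had the same sign in the thoracic segment for 95.4% of the 1554 genes and for 63.4% of all genes. The median thoracic change was 0.349 for genes that rose in the abdominal segment and -0.302 for those that fell. Over all genes Pearson's r between both changes was 0.481, a description across genes that are not independent. The segments share no array. Sympathetic and chromaffin markers were higher on every abdominal array than on any thoracic one, and their part in this comparison was not tested.

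No gene differed between segments in its response at an adjusted p under 0.05. The smallest adjusted p was 0.705 by limma, with 1217 genes at an unadjusted p under 0.05 (5.49%), and the median standard error of the difference was 0.161. Without high-phosphate array 3 the count was 1. Without the 5 lymphocyte-rich arrays, where that array stands alone, it was 43. Among the genes nearest to a call, Cd248 fell by 1.15 ± 0.117 in the abdominal and changed by -0.22 ± 0.127 in the thoracic segment, a difference of -0.93 ± 0.173. Col3a1 changed by -1.39 and -0.60, Col1a2 by -1.04 and -0.24, and Cox8b by -1.65 and -0.72. Their differences were -0.79 ± 0.165, -0.81 ± 0.177 and -0.93 ± 0.196, and none passed the adjustment (adjusted p = 0.705 for each by limma).

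By group, the thoracic medians were -0.493 for the cycle, -0.408 for complex I and -0.475 for fatty acid oxidation, with 8, 20 and 7 genes called lower. For glucocorticoid targets the thoracic median was 0.657 with 11 called higher, and 0 of the 20 had an unadjusted p under 0.05 for the difference between segments. Fkbp5 changed by 1.79 and 1.68, Trp53inp1 by 1.53 and 1.42, and Slc10a6 by 1.09 and 1.19. For collagens the thoracic median was -0.245 with 4 called lower. Smooth muscle genes had a thoracic median of 0.056, with 3 called higher and none lower.

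**Figure D5:**
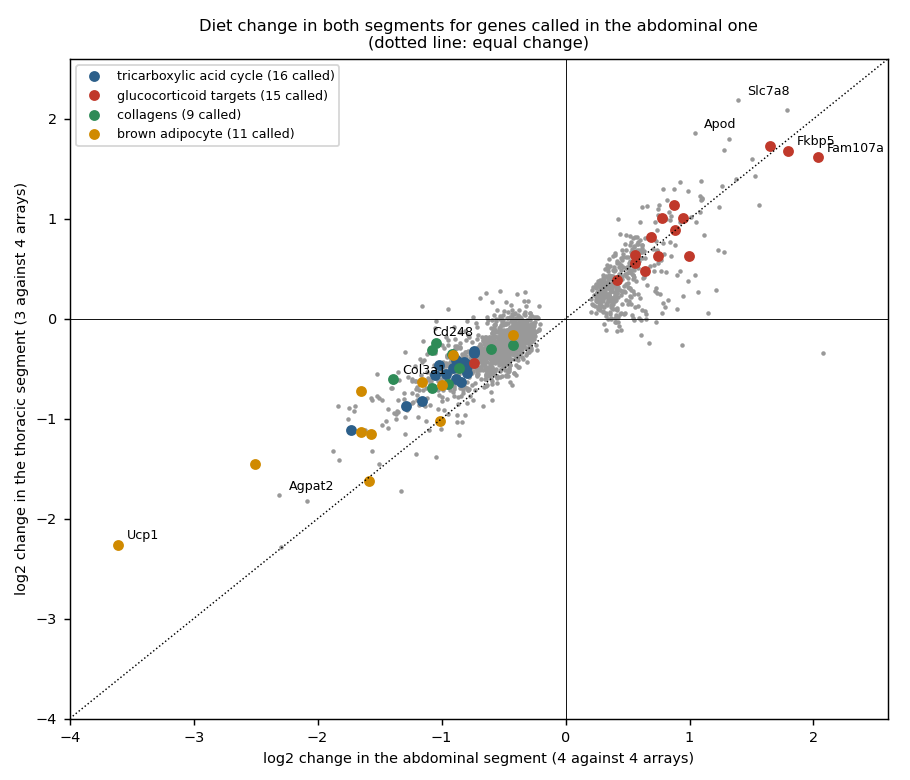
Diet change in the abdominal segment (x axis, 4 against 4 arrays) and the thoracic segment (y axis, 3 against 4 arrays) on the log2 scale, 1 point for each of the 1554 genes called in the abdominal segment, with 4 lists in colour. Glucocorticoid targets lie near the dotted line of equal change, and Col3a1, Cd248 and Ucp1 lie above it, with smaller falls in the thoracic segment.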

How the data were processed

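RNA from abdominal and thoracic aorta was hybridised to 15 single-sample arrays. The deposited log2 intensities carry RMA values, since RMA and Partek appear, without version or order, in the submitters' processing notes. The log base is not given in the sources used here and was inferred from the range of 1.38 to 13.33. RMA equalises array distributions, which can shift small changes of unaffected genes. No genome build is named, so no gene coordinates are given apart from the promoter windows.

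Of 41345 probe sets 23521 named 1 gene in the platform's table, and the brightest by mean over 15 arrays stood for each of 22180 genes. Counts for a gene list cover only its members among these genes. All 4 groups were fitted together in limma 3.58.1 (R 4.3.3; lmFit, eBayes with trend), with Benjamini-Hochberg adjustment over all genes at 0.05. The procedure was tested on simulated data. The alternatives cover variance prior, filter, normalization, weights, block, probe set choice, threshold, left-out arrays and tissue covariates. Arrays of a group are biological replicates per the labels.

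The comparison, gene lists and alternatives were chosen with earlier results of these data known. Genes were named by rules: the largest and the most significant changes, the leading members of each list, all phosphate, calcification, osteochondrogenic, lymphoid and hepatocyte members, genes stable over tissue fits and those differing most between segments. Cyc1, Tsc22d3, Atp5l, Sdhd, Rpl39, Col15a1 and Cyp2d22 fall outside these rules and were chosen after their values were seen.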

Additional observations from a re-analysis of the deposited data

Results flagged for a closer look

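In a group of 4 arrays, 1 array stood far from the other 3 in 16 of the 350 values tested for the named genes and lists. Chance gives about 1 in 20 for a single value. The values come from the same 8 arrays and list means share genes with the named genes, so they are not independent. The count therefore cannot be judged against that rate.
High-phosphate array 3, which is low in lymphocyte and high in hepatocyte markers, was the far array for 7 of the 16 flagged values. It had 7.38 for the mean of collagen processing against 7.03 to 7.04 on the other high-phosphate arrays, 7.15 for Coq7, 7.65 for Ppargc1b, 7.33 for Arntl, 7.95 for Col14a1, 6.52 for Sox9 and 9.86 for Ifi27. High-phosphate array 4 had 7.66 for the mean of amino acid transport against 7.31 to 7.33, 7.60 for Ciart, 4.67 for Kl and 4.91 for Fgf23. High-phosphate array 2 had 6.65 for Slc20a2. Among chow arrays, array 1 had 8.95 for Glycam1, next to 12.17 on the nearest array, and 8.59 for Plod2, and array 4 had 9.09 for Tagln and 3.69 for Dmp1.

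Of the 17824 probe sets that name no gene or several, which enter none of the comparisons, 450 were called for the abdominal diet change when all probe sets were tested together, 232 higher and 218 lower. That is 2.52% of them, against 5.62% of the probe sets that name 1 gene.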

How the results depend on the processing

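The direction of all 1554 calls held in every alternative run except the pan-adipocyte covariate, where 95.9% kept it, and the filter on low signal, which tests 1497 of them. These runs reuse the arrays on which the genes were called. For the 1362 called genes whose abdominal groups do not overlap, leaving arrays out cannot turn the sign. The count of calls ranged from 891 to 2249 when 1 array was left out, lowest without abdominal chow array 1. It was 1026 with the abdominal groups alone, 137 without the 5 lymphocyte-rich arrays, 705 with those as the only abdominal arrays, 401 with both tissue covariates, 55 with the pan-adipocyte covariate and 812 at an unadjusted p under 0.05 with 1.5-fold change. Median centring gave 315 higher and 1334 lower, and the fit without high-phosphate arrays 3 and 4 gave 701 higher and 1031 lower. The difference between segments gave 0 to 1 calls with 1 array left out, 43 without the 5 lymphocyte-rich arrays and 256 genes at an unadjusted p under 0.05 with 1.5-fold change. With the pan-adipocyte covariate the changes of Ppara (0.11), Adipoq (0.058), Rgs5 (0.005) and Entpd5 (0.072) turned above 0. Adipoq is among the genes averaged in that covariate, so its shift towards 0 is partly built in. The cause of the other shifts was not tested.

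The replicate number as a block gave 1692 calls and 0 for the difference. Same-numbered abdominal arrays of both diets deviated together with r of -0.25 to 0.404, over 0.1 for 2 of 4 numbers, so the numbers were not taken to pair the samples. Low signal limits genes near background, such as Fgf23, Ibsp and Dmp1, where a change would be hard to see.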
